A study of Mus musculus with 85 samples.

Results

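The miR-29 family is represented here by 3 mature miRNAs, mmu-miR-29a-3p, mmu-miR-29b-3p and mmu-miR-29c-3p (written below without the prefix for mouse), taken by name from the 1977 mature miRNAs in the count table. All 3 were among the 51 miRNAs that passed the filter on low counts. The counts come from small RNA sequencing of 85 hearts, with 1 library per heart. The hearts came from females of inbred strains that belong to the hybrid mouse diversity panel (HMDP). All mice were 16 weeks old, after 8 weeks on chow and 8 weeks on an HF/HS diet, which is rich in fat and sucrose. The labels give no second diet, treatment or sex, so there was no group to compare, and the strain of each heart was not used here. The values therefore describe how the family varied from heart to heart. In whole hearts, fewer cells of a type and less RNA per cell cannot be told apart.

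A miRNA pairs with messenger RNAs mainly through its seed, bases 2 to 8 counted from the 5′ end, and lowers their stability or translation. The miR-29 family is known for targeting messenger RNAs of extracellular matrix proteins, including collagens, fibrillin and elastin. In the heart, it is best known from work on fibroblasts and fibrosis after injury. The 3 members are made from 4 hairpins at 2 places in the genome, each holding a pair of hairpins.

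The mature sequences are shown because the members share 1 seed, in capitals, and differ at few bases after it (RefSeq, build GRCm38.p6).
miR-29a-3p: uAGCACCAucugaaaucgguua
miR-29c-3p: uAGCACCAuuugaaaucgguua
miR-29b-3p: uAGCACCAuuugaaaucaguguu

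Of 1679 mature miRNA names in the RefSeq table, only these 3 carried this seed. MiR-29a-3p and miR-29c-3p are 22 bases long and differ at 1 of them, C10U, with positions counted from the 5′ end. MiR-29b-3p is 23 bases long. Over the first 22 bases, it differs from miR-29c-3p at 3 positions, G18A, U21G and A22U, and from miR-29a-3p at these and C10U. A read with an error at base 10 could thus be counted for the wrong one of miR-29a and miR-29c.

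The first pair of hairpins lies on the minus strand of chromosome 6, in mm10 (GRCm38) coordinates. Mir29a is at chr6:31062660-31062747 and Mir29b-1 at chr6:31063023-31063093, with 275 bases between them. In GENCODE M21, Mir29a overlaps no other gene, and Mir29b-1 touches the end of the exon of the lincRNA Gm27019. The second pair lies on the plus strand of chromosome 1, with Mir29b-2 at chr1:195037040-195037120 and Mir29c at chr1:195037547-195037634, 426 bases apart. Both lie within an exon of the noncoding transcript A330023F24Rik. Both also lie opposite an untranslated region of Cd46, a complement regulator transcribed from the other strand. Both miR-29b hairpins give the same mature 3p sequence, so counts of miR-29b-3p cannot be divided between the pairs. MiR-29a-3p comes only from the pair on chromosome 6 and miR-29c-3p only from the pair on chromosome 1. Of the ratios between the 3 members, only that of miR-29a-3p to miR-29c-3p thus compares the pairs, and only by their 3p arms.

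The 5p arms, from the other side of each hairpin, differ between all 4 hairpins and are shown because they can tell the miR-29b hairpins apart (bases 2 to 8 in capitals).
miR-29a-5p: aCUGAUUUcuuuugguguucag
miR-29b-1-5p: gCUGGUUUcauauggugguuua
miR-29b-2-5p: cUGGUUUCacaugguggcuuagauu
miR-29c-5p: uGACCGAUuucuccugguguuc

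The libraries were shallow, with 1457 to 30202 counts each (median 12248). As the first principal component of the other miRNAs showed, they fell into 2 sets that the labels do not name. Set A held 58 libraries and set B held 27, numbered 1 to 10, 15 to 18, 20, 21 and 49 to 59. Since the sets come from these counts and stand for no condition of the study, values by set are descriptions with no test. Library 14, the shallowest, lay nearest to set B within set A. Median totals were 13259.5 counts in set A and 10989 in set B. The cardiomyocyte list made up 18.5 to 29.2% of counts in set A and 17.6 to 24.2% in set B, with 4 of its 5 miRNAs past the filter. The liver marker miR-122-5p had a median share of 0.0169% in set A and 0.0372% in set B. By the medians of their summed shares, the leukocyte (1.70 against 0.520%), cardiomyocyte (23.5 against 21.1%) and endothelial (6.57 against 5.81%) lists were higher in set A. The fibroblast list was higher in set B (1.33 against 1.56%). The sums of the smooth muscle (4.01 against 4.05%) and erythroid (0.348 against 0.342%) lists lay close together. The 3 leukocyte miRNAs summed to 0.618 to 3.93% in set A and 0.331 to 0.981% in set B, and the 4 fibroblast miRNAs to 0.784 to 1.97% and 1.12 to 2.23%. The endothelial list summed to 5.27 to 8.50% and 3.73 to 7.12%, the smooth muscle list to 2.47 to 5.55% and 2.87 to 5.26%, and the erythroid list to 0.136 to 1.12% and 0.165 to 1.04%. Some sums rest on few miRNAs. Of the leukocyte list, only miR-142a-3p passed the filter, with 14800 counts against 1111 for miR-223-3p and 699 for miR-150-5p. In some lists the members went opposite ways. By mean level, miR-21a-5p was higher in set A and miR-199a-3p in set B. Of the smooth muscle miRNAs, miR-143-3p (42881 counts) was higher in set A by 0.38 log2, and miR-145a-5p (2986 counts) was higher in set B, at a difference of -1.32. Of the 4 cardiomyocyte miRNAs past the filter, miR-133a-3p was higher in set B and the other 3 in set A. Whether any of these lists plays a part in the values below was not tested.

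The members were abundant. MiR-29a-3p had 24472 counts over all hearts, 2.14% of every count in the table and the ninth highest of all miRNAs. MiR-29c-3p had 17993 counts (1.58%) and miR-29b-3p had 10126 (0.887%). MiR-29a-3p was even from heart to heart. It had 47 counts in the lowest library, 254 in the median library and 552 in the highest, and as log2 CPM, its count scaled to a common library total after TMM normalization, it ranged from 13.56 to 14.88 with a median of 14.48 (SD 0.22, n = 85). MiR-29c-3p had 38 to 653 counts (median 190) and a log2 CPM of 12.26 to 14.92 (median 14.17, SD 0.69, n = 85). MiR-29b-3p had 9 to 350 counts (median 116) and ranged from 10.51 to 14.26 (median 13.39, SD 1.13, n = 85). Over all hearts, the spread of miR-29b-3p thus lay near 1 end of the table and that of miR-29a-3p near the other. By edgeR's tagwise coefficient of variation over hearts, miR-29b-3p (0.675) was the fourth most variable of 51, miR-29c-3p (0.443) was the fifteenth, and miR-29a-3p (0.151) had the rank of 50.

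The spread of miR-29b and miR-29c lay mostly between the sets. The mean log2 CPM of miR-29b-3p in set A was 13.56 ± 0.36 (SD, n = 58). In set B it was 11.27 ± 0.40 (SD, n = 27), lower by a difference of 2.28 between the means, or 4.87-fold. In this scaling its sets did not overlap. The highest library of set B, library 59, was at 12.24 and the lowest of set A, the shallow library 14, at 12.45. As shares of all counts, with no TMM, they overlapped. Set A went down to 0.446% in library 46 and set B up to 0.518% in library 59. By TMM log2 CPM, 5 of the 51 miRNAs (9.8%) had sets that did not overlap. MiR-29c-3p was at 14.31 ± 0.29 (SD, n = 58) and 12.97 ± 0.31 (SD, n = 27), a difference of 1.34, or 2.53-fold. Its sets overlapped, with set B reaching 13.53 and set A going down to 13.41 in library 46. MiR-29a-3p was at 14.41 ± 0.23 (SD, n = 58) and 14.58 ± 0.16 (SD, n = 27), a difference of -0.18, and its sets overlapped from 14.20 to 14.80, with set A reaching down to 13.56 and set B up to 14.88. The median difference of all 51 miRNAs was -0.19, so miR-29a-3p lay where the typical miRNA lay. The scale moved this: set B exceeded set A in the median of the 51 miRNAs by 0.45 with CPM without TMM, by 0.09 with DESeq2 size factors and by -0.06 with no filter. MiR-29a-3p followed, from -0.45 to 0.08, so its direction between the sets changed with the scaling. The differences of miR-29b-3p (2.02 to 2.52) and miR-29c-3p (1.06 to 1.59) kept theirs in those 4 scalings. Within set A, the coefficients of variation were 0.137 for miR-29a-3p, 0.190 for miR-29c-3p and 0.218 for miR-29b-3p, against a median of 0.175 over the 51 miRNAs, and in set B 0.133, 0.217 and 0.253 against 0.230.

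**Figure D1:**
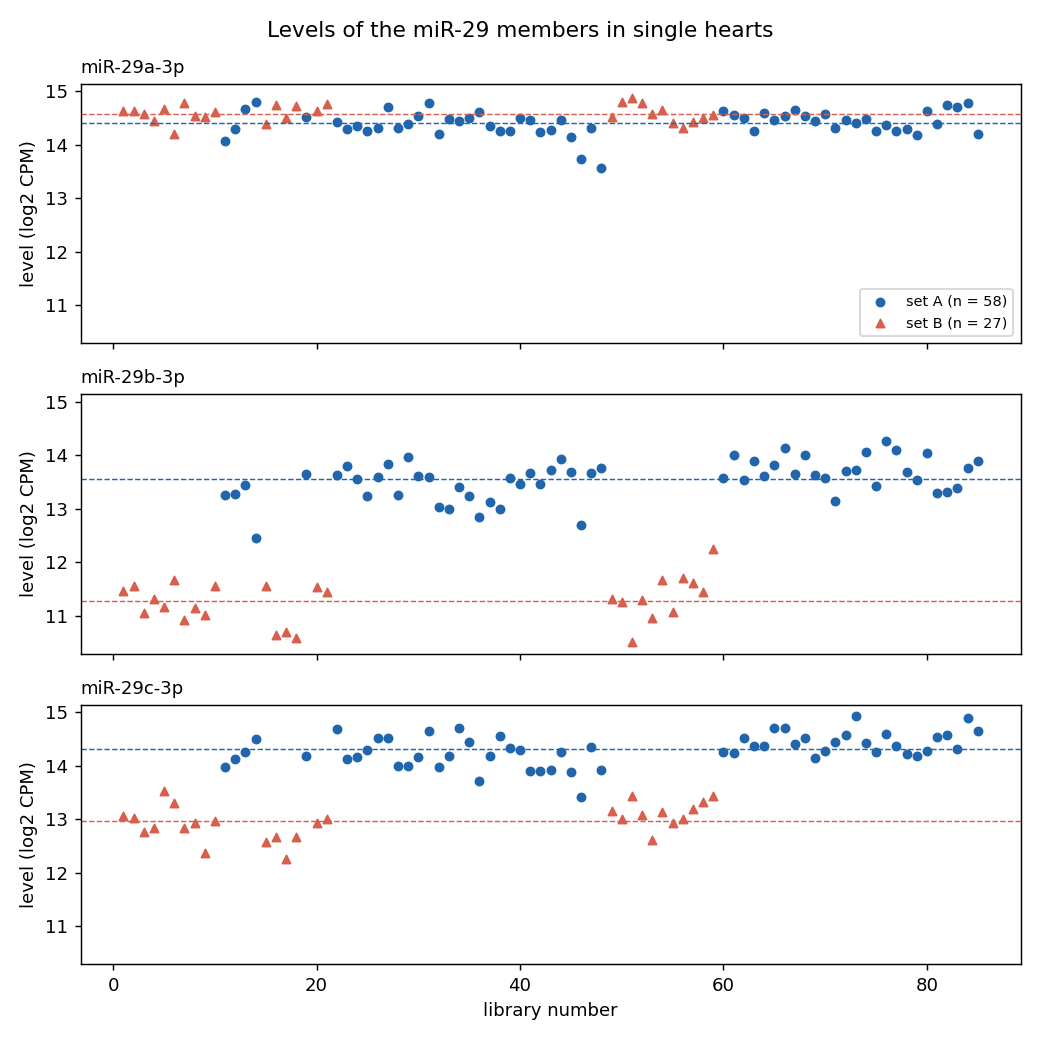
Level of each member (log2 CPM, y axis) in each of 85 hearts, by library number (x axis), with the mean of each set as a dashed line. In this TMM scaling, the points of miR-29b-3p lie in bands that do not overlap, around 13.56 in set A and 11.27 in set B. Those of miR-29c-3p lie around 14.31 and 12.97, and those of miR-29a-3p share 1 band.

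Shares within the family need no normalization between libraries. Over all hearts, miR-29a-3p made up 46.5% of the family's 52591 counts, miR-29c-3p made up 34.2% and miR-29b-3p made up 19.3%. In set A the family was mixed, with 39.95% miR-29a-3p (29.1 to 54.6% in single libraries), 37.3% miR-29c-3p (29.5 to 46.97%) and 22.7% miR-29b-3p (9.57 to 33.5%). In set B it was mostly miR-29a-3p, at 69.6% (58.8 to 78.7%), with 23.4% miR-29c-3p (16.2 to 31.5%) and 6.99% miR-29b-3p (3.07 to 11.8%). The shares of miR-29a-3p did not overlap between the sets. By a related but not identical measure, the log2 ratios of all 1275 pairs of miRNAs, 11% did not overlap. In all 27 libraries of set B, the order of the counts was miR-29a, miR-29c, miR-29b. In set A, 37 of 58 libraries had this order, 20 had miR-29c-3p above miR-29a-3p and miR-29b-3p last, and in 1, library 48, miR-29b-3p exceeded miR-29a-3p. Single libraries are coarse: in library 14, with 94 counts of the family, the 9 counts of miR-29b-3p gave 9.57% with a 95% Wilson interval of 5.12 to 17.2%, which covers counting error only. The family as a whole took 4.91% of all counts in set A (2.11 to 6.45% in single libraries) and 3.78% in set B (2.90 to 4.45%).

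**Figure D2:**
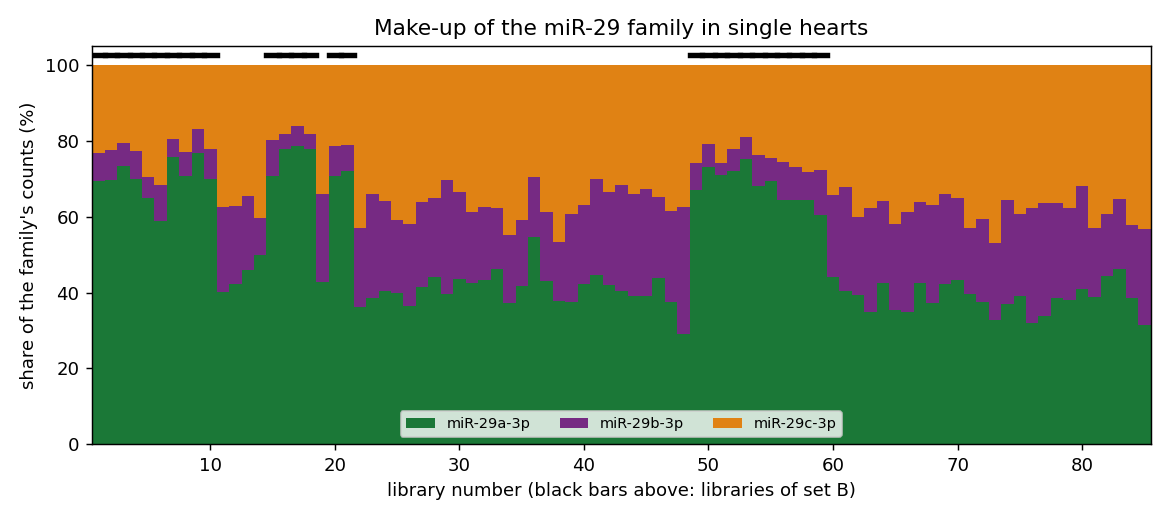
Share of the family's counts (%, y axis) taken by each member in each heart, by library number (x axis), with the libraries of set B under black bars. The share of miR-29a-3p is 58.8 to 78.7% under the bars and 29.1 to 54.6% elsewhere, and it changes from one library to the next at each border between the sets.

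The ratio of miR-29a-3p to miR-29c-3p compares the chromosome 6 pair with the chromosome 1 pair by their 3p arms. It was 0.696 in the lowest library, 1.23 in the median library and 4.82 in the highest. In set A it was close to even, with a median of 1.12 (0.696 to 1.85), and in set B its median was 3.09 (1.86 to 4.82). The sets did not overlap, although the highest library of set A, library 36, came close to the lowest of set B, library 6. The ratio of miR-29a-3p to miR-29b-3p had a median of 1.78 (0.869 to 5) in set A and of 10.3 (5.10 to 22.6) in set B. Its sets also did not overlap, with library 14 at the upper end of set A and library 59 at the lower end of set B. The ratio of miR-29c-3p to miR-29b-3p had a median of 1.67 (1.02 to 4.05) and 3.22 (2.06 to 8.23), and its sets overlapped. Of all 1275 pairs of the 51 miRNAs, 11% had log2 ratios that did not overlap between the sets.

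The ratios varied less within a set than over all hearts. In set A, the log2 ratio of miR-29a-3p to miR-29c-3p had an SD of 0.27, where counting error alone gives about 0.14, and this SD ranked 32 from the smallest among 1275 pairs in that set. In set B its SD was 0.34, against 0.18 from counting error, and its rank was 148. The ratio of miR-29a-3p to miR-29b-3p had an SD of 0.41 in set A and 0.51 in set B, against 0.17 and 0.31, with ranks of 382 and 546. For miR-29c-3p over miR-29b-3p, the SD was 0.39 in both sets, against 0.17 and 0.34, so in set B the counting error came close to the whole spread. Its ranks were 304 and 232.

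The make-up changed between libraries with neighbouring numbers. Library 48, in set A, had 119 counts of miR-29a-3p, 137 of miR-29b-3p and 153 of miR-29c-3p, and library 49, in set B, had 184, 19 and 71. Library 10, in set B, had 184, 21 and 58 counts of miR-29a-3p, miR-29b-3p and miR-29c-3p, and library 11, in set A, had 206, 116 and 192. Library 19, a single library of set A between libraries of set B, had 150, 82 and 119 counts, while libraries 18 and 20 beside it had 235, 12 and 55, and 161, 18 and 49. The steps were not alike at all borders. Between libraries 59 and 60, the ratio of miR-29a-3p to miR-29c-3p went from 2.19 to 1.28 and that of miR-29a-3p to miR-29b-3p from 5.10 to 2.06. Between library 14, with 9 counts of miR-29b-3p, and library 15, these ratios went from 1.23 to 3.54 and from 5 to 7.30, and miR-29c-3p over miR-29b-3p went from 4.05 to 2.06, against its direction between the sets.

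**Figure D3:**
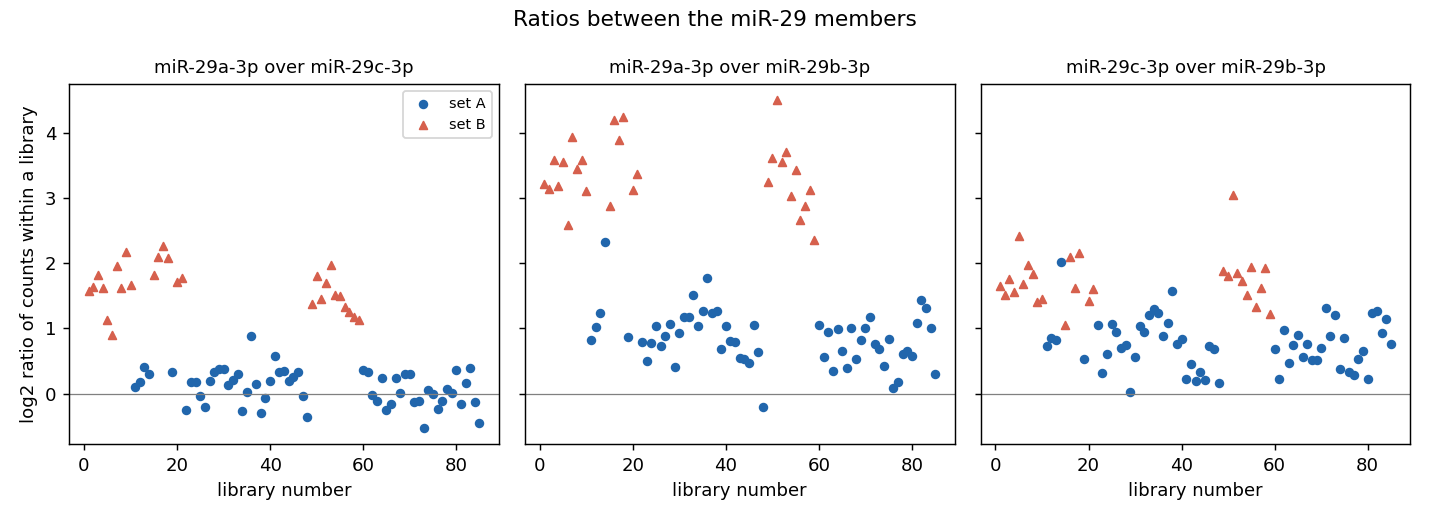
Log2 ratio of the counts of 2 members within each library (y axis) by library number (x axis), with a line at equal counts. In the panels of miR-29a-3p over miR-29c-3p and over miR-29b-3p, the libraries of set B lie above all those of set A; in the panel of miR-29c-3p over miR-29b-3p they overlap.

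The 5p arms were rare. MiR-29a-5p had 64 counts in all, miR-29c-5p had 99, miR-29b-2-5p had 23 and miR-29b-1-5p had 2, so that the 3p arm held 99.7% of the counts of miR-29a, 99.8% of those of miR-29b and 99.5% of those of miR-29c. Of the 25 counts of the miR-29b 5p arms, 92.0% were of the chromosome 1 hairpin, Mir29b-2 (95% Wilson interval 75 to 97.8%). These arms say which 5p strands were counted and do not give the source of the 3p counts. MiR-29b-1-5p was at 0 in 83 of 85 libraries, where a count of 0 allows up to 3 counts, or 0.0245% at the median total.

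The arms of miR-29c went opposite ways between the sets. MiR-29c-5p had 49 counts in set A, a pooled CPM of 58.8, and 50 in set B, a pooled CPM of 162. The rate in set A was 0.362 of that in set B (exact 95% interval 0.239 to 0.549), while miR-29c-3p was 2.07 times as high in set A from the same pooled totals. The 5p arm thus made up 0.320% of the counts of both miR-29c arms in set A (95% Wilson interval 0.242 to 0.423%) and 1.80% in set B (1.37 to 2.36%). It was seen in 33 of 58 libraries of set A and in 22 of 27 of set B, with at most 5 counts in any of them. For miR-29a, the 5p arm made up 0.293% in set A (0.221 to 0.388%) and 0.197% in set B (0.121 to 0.319%), and its rate in set A was 1.11 times that in set B (0.619 to 2.09). MiR-29a-5p and miR-29c-5p had 48 and 49 counts in set A, and 16 and 50 in set B. The ratio of these 5p arms was thus lower in set B, opposite to the ratio of the 3p arms. For miR-29b, the 5p arms made up 0.172% (0.106 to 0.278%) and 1.09% (0.576 to 2.06%), from 16 and 9 counts. All these intervals cover counting error only and not the spread between hearts.

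**Figure D4:**
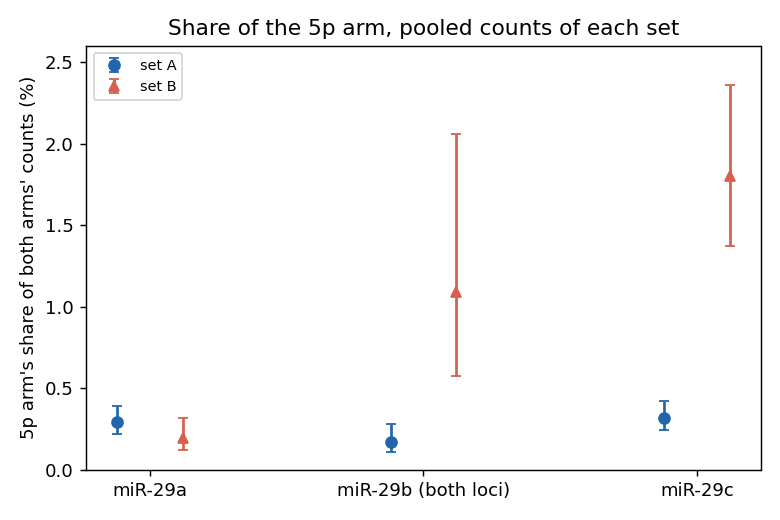
Share of the 5p arm in the counts of both arms (%, y axis) for each hairpin family (x axis), from the pooled counts of each set, with 95% Wilson intervals for counting error as bars. The share is 0.320% in set A and 1.80% in set B for miR-29c, and 0.293% and 0.197% for miR-29a.

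The members differ in base composition. The share of G and C was 40.9% in miR-29a-3p, 36.4% in miR-29c-3p and 34.8% in miR-29b-3p, and the difference between set A and set B ran in the opposite order, -0.18, 1.34 and 2.28 on the log2 scale. Of the 51 miRNAs, 41 had a mature sequence in the RefSeq table, and 35 of these had a higher GC share than miR-29b-3p. Across the 41, the GC share and the difference between the sets had a Pearson's r of -0.417 and a Spearman's rho of -0.368. This is a description over miRNAs that share the same libraries, with no test. Other miRNAs with the GC share of miR-29c-3p went both ways. Let-7a-5p (-1.27) and let-7g-5p (-0.98) were higher in set B, and miR-208a-3p (2.64), miR-21a-5p (1.22) and miR-451a (0.76) in set A. Among the 5p arms, miR-29c-5p, which was higher in set B, has a GC share of 50%. MiR-29a-5p has 36.4%, the same as miR-29c-3p, at a rate in set A of 1.11 times that in set B. The part of base composition in the differences was not tested.

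MiR-29b-3p and miR-29c-3p rose with library number, and miR-29a-3p did not pass the test. Per 10 libraries, the fitted log2 change was 0.19 (SE 0.04, adjusted p = 3.04e-05) for miR-29b-3p, 0.13 (SE 0.03, adjusted p = 7.60e-06) for miR-29c-3p and -0.01 (SE 0.01, adjusted p = 0.449) for miR-29a-3p in the quasi-likelihood test of edgeR, adjusted by Benjamini-Hochberg over 51 miRNAs. Of the 51, 43.1% rose and 41.2% fell, 22 and 21 miRNAs, against 15 and 29 with CPM without TMM, so the rise of 2 of 3 members was not particular to them. Most of set B has low library numbers, and within the sets the changes were smaller. In set A, miR-29b-3p rose by 0.06 (SE 0.02, adjusted p = 0.00679) and miR-29c-3p by 0.04 (SE 0.02, adjusted p = 0.0181), where 21.6% of the 51 rose. In set B, neither passed the test, at 0.03 for both (adjusted p = 0.481 and 0.431), where 35.3% changed in either direction. With CPM without TMM, miR-29a-3p fell by 0.05 per 10 libraries (adjusted p = 0.000417). Animal numbers rose in the same order as library numbers, so what goes with the one number cannot be told apart from what goes with the other; the labels do not say what the library number orders.

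The ratios need no scaling between libraries. Over all 85 libraries, the log2 ratio of miR-29a-3p to miR-29c-3p had a Pearson's r with library number of -0.491 (permutation p = 1e-05, the smallest the permutations can give; adjusted p = 2.18e-05 over 1275 pairs) and a Spearman's rho of -0.488 (permutation p = 1e-05). Without the 2 libraries farthest from the middle of the numbers, r was -0.463. In total, 82.9% of all pairs passed this test, and the libraries lay in separate sets, so the values within a set are the ones to read. In set A, r was -0.302 for miR-29a-3p over miR-29c-3p (permutation p = 0.0213 and, adjusted, p = 0.0484; rho = -0.272, permutation p = 0.0397) and -0.307 for miR-29a-3p over miR-29b-3p (permutation p = 0.0187 and, adjusted, p = 0.0435; rho = -0.272, permutation p = 0.0399), where 44.4% of pairs passed. MiR-29c-3p over miR-29b-3p gave -0.118 (permutation p = 0.378 and, adjusted, p = 0.476; rho = -0.0828, permutation p = 0.537). In set B, where 26% passed, none of the 3 ratios did, with r of -0.315, -0.149 and 0.0828 (permutation adjusted p = 0.219, 0.595 and 0.779).

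Within the sets, the members went together in part. In set A, miR-29a-3p and miR-29c-3p, which come from different chromosomes, were correlated with r = 0.490 (permutation p = 6e-05 and, adjusted, p = 0.0013 over 1275 pairs; rho = 0.375, permutation p = 0.00374). Without libraries 46 and 48, the 2 farthest from the median of miR-29a-3p, r was 0.340 (permutation p = 0.0108 and, adjusted, p = 0.0486). In that set, 11.1% of pairs passed with a positive r and 11.3% with a negative one, 142 and 144 pairs, against 314 and 106 with CPM without TMM. In set B, the same pair had r = 0.0782 (permutation p = 0.696 and, adjusted, p = 0.793; rho = 0.120, permutation p = 0.549); whether the sets differ in it was not tested. MiR-29b-3p and miR-29c-3p, which share the pair on chromosome 1, had r = 0.310 in set A (permutation p = 0.0177 and, adjusted, p = 0.0693; rho = 0.239, permutation p = 0.0713). In set B, their r was 0.463 (permutation p = 0.0148 and, adjusted, p = 0.0484; rho = 0.456, permutation p = 0.0174), and the call was lost by rho (permutation adjusted p = 0.0739). In set B, 16.9% of pairs passed with a positive r and 13.9% with a negative one. The call for this pair in set A depended on the setting: it passed without library 14 (r = 0.380, permutation adjusted p = 0.0298) and with CPM without TMM (r = 0.348, permutation adjusted p = 0.0307). MiR-29a-3p and miR-29b-3p, which share the pair on chromosome 6, had r = 0.0794 in set A (permutation p = 0.552 and, adjusted, p = 0.716; rho = 0.0777, permutation p = 0.563). In set B, their r was -0.431 (permutation p = 0.0246 and, adjusted, p = 0.0708; rho = -0.418, permutation p = 0.0323).

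Outside the family, the miRNAs most like miR-29b-3p, by the mean of r in the 2 sets, were miR-30b-5p (mean r 0.532), miR-148a-3p (0.523) and miR-30e-5p (0.487). With miR-30b-5p, r was 0.533 in set A (permutation p = 1e-05 and, adjusted, p = 0.000354; rho = 0.519, permutation p = 4e-05). In set B it was 0.532 (permutation p = 0.0046 and, adjusted, p = 0.0219; rho = 0.599, permutation p = 0.00104), and it was 0.435 and 0.596 without the 2 farthest libraries of each. For miR-29c-3p, again outside the family, they were miR-30e-5p (mean r 0.510), miR-126b-3p (0.406) and miR-26b-5p (0.406). With miR-30e-5p, r was 0.357 in set A (permutation p = 0.00628 and, adjusted, p = 0.0344; rho = 0.472, permutation p = 0.00029). In set B it was 0.662 (permutation p = 0.00019 and, adjusted, p = 0.00226; rho = 0.692, permutation p = 8e-05), and it was 0.396 and 0.625 without the 2 farthest libraries. The call in set A was lost with CPM without TMM (r = 0.286, permutation adjusted p = 0.0824). With TMM, no miRNA passed with miR-29a-3p in both sets. Its closest outside the family were let-7i-5p (mean r 0.333), miR-125b-5p (0.308) and miR-133a-3p (0.279), and of these only miR-125b-5p passed, in set B (r = 0.512, permutation p = 0.00638, adjusted p = 0.0278; rho = 0.543, permutation p = 0.00408), a call that was lost without libraries 6 and 51, where r was 0.378 (permutation adjusted p = 0.14). The scaling mattered for miR-29a-3p. With CPM without TMM, all 3 passed in set A, with r of 0.485 for let-7i-5p, 0.412 for miR-125b-5p and 0.532 for miR-133a-3p (permutation adjusted p = 0.00341, 0.00648 and 0.000929), and miR-125b-5p no longer passed in set B (r = 0.414, permutation adjusted p = 0.0882). Of 50 partners in set A, miR-29b-3p passed with 11 at a positive and 8 at a negative r, miR-29c-3p with 5 and 3, and miR-29a-3p with 3 and 3. In set B, these counts were 5 and 6, 10 and 8, and 1 and 0. Over all 1275 pairs, 11.1% passed at a positive and 11.3% at a negative r in set A, and 16.9% and 13.9% in set B.

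Of 14 other miRNAs that are known from work on cardiac fibrosis, 9 passed the filter. The 5 that did not were miR-101b-3p, miR-199b-5p, miR-34a-5p, miR-155-5p and miR-214-3p, with 6 to 1082 counts each over all hearts. With library number, 3 of the 9 rose, 4 fell and 2 did not pass the test, with a median log2 change of -0.03 per 10 libraries against -0.01 over all 51, of which 43.1% rose and 41.2% fell. Within set A, miR-21a-5p and miR-101a-3p rose and miR-133a-3p fell, where 11 of the 51 rose and 12 fell. Within set B, miR-21a-5p, miR-101a-3p and miR-208a-3p rose and miR-30c-5p fell, where 8 rose and 10 fell. MiR-133b-3p and miR-24-3p passed in neither set. The values that follow are over all hearts. MiR-21a-5p, which is known to promote fibroblast survival, rose by 0.16 (SE 0.02, edgeR adjusted p = 1.93e-08) and was at 12.53 log2 CPM in set A and 11.31 in set B. MiR-101a-3p rose by 0.24 and miR-208a-3p, which is made from an intron of the cardiac myosin gene Myh6, by 0.23. MiR-133a-3p (-0.13) and miR-133b-3p (-0.09), which are muscle miRNAs, fell, as did miR-30c-5p (-0.07) and miR-24-3p (-0.05). MiR-26a-5p (-0.02, edgeR adjusted p = 0.0736) and miR-378a-3p (-0.03, edgeR adjusted p = 0.192) did not pass the test. The median difference between the sets was -0.30 for the 9, with 3 higher in set A and 6 higher in set B, against -0.19 for all 51, with 23 and 28.

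Over all 1275 pairs of miRNAs, 11.1% passed at a positive and 11.3% at a negative r in set A, and 16.9% and 13.9% in set B. Within the sets, miR-21a-5p was the one of the 9 fibrosis miRNAs that passed with miR-29b-3p in both. Its r with miR-29b-3p was 0.394 in set A (permutation p = 0.0026 and, adjusted, p = 0.0186; rho = 0.352, permutation p = 0.00675), a call that was lost without libraries 14 and 46, where r was 0.313 (permutation adjusted p = 0.0722). In set B it was 0.496 (permutation p = 0.00853 and, adjusted, p = 0.0341; rho = 0.553, permutation p = 0.00328), and 0.556 without its 2 farthest libraries. With miR-29c-3p, miR-21a-5p had r = 0.623 in set B (permutation p = 0.00055 and, adjusted, p = 0.00497; rho = 0.625, permutation p = 0.00076) and 0.546 without the 2 farthest libraries, and r = 0.177 in set A (permutation p = 0.183 and, adjusted, p = 0.348; rho = 0.153, permutation p = 0.251). MiR-29b-3p also passed in set A with miR-101a-3p (r = 0.438, permutation adjusted p = 0.00557), with miR-208a-3p (r = 0.425, permutation adjusted p = 0.00727) and, at a negative r, with miR-378a-3p (r = -0.343, permutation adjusted p = 0.0421), which did not pass with CPM without TMM (r = -0.246, permutation adjusted p = 0.138). MiR-29c-3p passed in set A with miR-101a-3p (r = 0.371, permutation adjusted p = 0.0266), which also did not pass with CPM without TMM (r = 0.237, permutation adjusted p = 0.156). In set B, it passed with miR-208a-3p (r = 0.617, permutation adjusted p = 0.0058) and, at a negative r, with miR-133a-3p (r = -0.521, permutation adjusted p = 0.0241) and miR-24-3p (r = -0.528, permutation adjusted p = 0.0219). For these 3 pairs in set A, r was -0.189, of the opposite sign, -0.0591 and -0.208 (permutation adjusted p = 0.313, 0.792 and 0.264). MiR-29a-3p passed with 1 of the 9, miR-208a-3p in set A, at r = -0.529 (permutation p = 1e-05 and, adjusted, p = 0.000354; rho = -0.405, permutation p = 0.00171), and r was -0.351 without libraries 46 and 48. The same pair had r = -0.00165 in set B (permutation adjusted p = 0.993). With CPM without TMM, miR-29a-3p also passed in set A at a positive r with miR-133a-3p (r = 0.532, permutation adjusted p = 0.000929), miR-24-3p (r = 0.531, permutation adjusted p = 0.000159) and miR-26a-5p (r = 0.5, permutation adjusted p = 0.00115). With that scaling, 314 of 1275 pairs in set A passed at a positive r and 106 at a negative one. The median r with the 9 was -0.0103 for miR-29a-3p, 0.0601 for miR-29b-3p and -0.0591 for miR-29c-3p in set A, and -0.0431, 0.0410 and -0.272 in set B, against a median over all pairs of 0.0054 and 0.00784.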

How the data were processed

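Total RNA of each heart was made into a small RNA library with a QIAseq miRNA kit and sequenced as single 50-base reads. The authors mapped reads with HISAT2 2.0.6, to mm10 per the labels' processing notes, counted them with HTSeq 0.13.5, and deposited raw counts per mature miRNA. How reads that match several hairpins were assigned, the strand setting and the use of molecular identifiers are not given in the sources used here. Counts of miR-29b-3p, whose mature sequence is the same from 2 loci, are therefore uncertain. The labels say nothing of repeated libraries, so each heart is 1 sample.

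Of 1977 listed miRNAs, 548 had counts, and 51 passed filterByExpr (minimum count 10, minimum total 15) and held 95.67% of all counts. Levels are TMM log2 CPM with a prior count of 2 (R 4.3.3, edgeR 4.0.16). Ratios are log2 of counts plus 0.5. Trends used glmQLFit and glmQLFTest. Correlations used two-sided permutation tests with 100000 resamples (numpy 2.4.6), with Benjamini-Hochberg adjustment over all 1275 pairs and a threshold of 0.05. The sets came from 2-means on the first principal component without the members. Intervals are 95% Wilson intervals unless named otherwise. The filter on low counts, the scaling (DESeq2 1.42.0 size factors or none), the prior count and pseudocount, the depth, the sets, the covariates and the rank statistic were varied. The named miRNAs were the members, their 5p arms, the 3 miRNAs most correlated with each member and the list of fibrosis miRNAs. The scripts were tested on simulated data, where the trend test called 10 of 10 slopes of 0.1 log2 per 10 libraries and 0 of 48 flat miRNAs, and at slopes of 0.2 it called 9 of 9 and 1 of 46. The simulated libraries held no sets, and all miRNAs had the same coefficient of variation apart from counting error. The trend test was thus not tried on libraries that lie in sets, as the real ones do. The members, lists and sets were chosen with earlier results of these data known.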

Additional observations from a re-analysis of the deposited data

How the results depend on the processing

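The libraries are shallow, so the 5p arms can be read only from pooled counts. The sets were found in the data, and strain was not used here, so its part in the differences was not tested. Leaving out libraries 14 or 46 was chosen after seeing the data. No paired analysis was possible because there is 1 group. Where a value changed, the cause was not tested. Fits within a set had fewer libraries, and fits with no filter had more miRNAs.

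In set B alone, the share of miR-29a-3p was 69.6%, of miR-29b-3p 6.99% and of miR-29c-3p 23.4%, the median log2 CPM of miR-29b-3p was 11.32 and of miR-29c-3p 13.001, and the median log2 ratios were 1.63 (miR-29a over miR-29c), 3.37 (miR-29a over miR-29b) and 1.69 (miR-29c over miR-29b). Other alternatives moved the levels, shares and ratios by less than 1 SD.

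Of 51 miRNAs, 43 followed library number by edgeR's test. This test called 99 of 548 without the filter, and of 51 it called 23 among the libraries of set A and 18 among those of set B. For miR-29a-3p it was -0.050 log2 per 10 libraries with CPM without TMM (edgeR adjusted p = 0.000417), 0.023 with no filter, 0.0080 with the set as a covariate, 0.0089 in set A and 0.00024 with DESeq2's Wald test, the last 4 not past the threshold. For miR-29b-3p it was 0.032 and for miR-29c-3p 0.030 in set B, and both were past the threshold in the other alternatives. The log2 ratios of 1057 pairs followed library number, 566 in set A and 331 in set B; r for miR-29a over miR-29c was -0.315 in set B, for miR-29a over miR-29b -0.149 in set B, and for miR-29c over miR-29b -0.118 in set A and 0.0828 in set B.

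Of miRNA pairs in set A, 286 passed, against 86 with no filter and 161 as partial correlations; in set B 392 passed, against 107 with no filter and 242 by Spearman's rho. The r of miR-29a and miR-29b in set A was -0.0527 without library 46 and -0.0140 without the 2 farthest libraries, and in set B 0.179 with no filter. The r of miR-29b and miR-29c passed in set A with DESeq2 size factors (0.342), CPM without TMM (0.348) and without library 14 (0.380), and in set B no longer passed with no filter (0.630), by rho (0.456) or as a partial correlation (0.441). The call for miR-29a and miR-29c kept its side of the threshold in every alternative in both sets.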
